A study of Mus musculus with 16 samples.

Results

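The genes described here encode the nuclear part of the oxidative phosphorylation machinery. They were chosen by symbol: Ndufa, Ndufb, Ndufc, Ndufs, Ndufv, Uqcr, Cox4i, Cox5, Cox6, Cox7, Cox8 and Atp5 prefixes, plus Sdha to Sdhd and Cyc1. Of 55414 gene identifiers in the table, 108 carried such a symbol, and 13 of these were pseudogenes or not protein-coding. Of the 95 protein-coding rows, 86 averaged 10 counts or more across 16 libraries and 9 did not. The 86 comprise 36 genes of complex I, 4 of complex II, 9 of complex III, 12 of complex IV, 17 of complex V and 8 complex I assembly factors. The assembly factors (Ndufaf1 to Ndufaf8) entered through the prefix Ndufa and are not subunits, and Atp5s is not a core subunit of complex V. Ndufa4 is counted with complex IV, where its protein sits.

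RNA came from leukaemia-propagating cells, the sorted fraction held to maintain the leukaemia, of mice with infant-type pro-B acute lymphoblastic leukaemia. All 4 groups share 1 genotype, miR-128a overexpressing Kmt2a-AFF1+, so no group lacks the fusion or the microRNA and no healthy cells serve as controls. They came from 2 niches, the central nervous system (CNS) and the bone marrow (BM). One sort, LSK, took cells without lineage markers that carry Sca1, cKit and IL7R; the other, LK (LK/CLP in the labels), took those with cKit but not Sca1. Each of BM LSK, CNS LSK, BM LK and CNS LK has 4 libraries numbered 1 to 4. The labels give no age, treatment or number of animals, so p-values measure the spread between these libraries. In bulk RNA, fewer cells of a type and less RNA per cell cannot be told apart.

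Oxidative phosphorylation takes place in the inner mitochondrial membrane. Complexes I and II pass electrons from NADH and succinate to ubiquinone, complex III hands them to cytochrome c, and complex IV reduces oxygen. Complexes I, III and IV pump protons, and complex V (ATP synthase) uses the gradient to make ATP. Every complex except II also holds subunits encoded in the mitochondrial genome, so its assembly draws on both genomes.

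Library totals ran from 19.2 to 29.2 M counts, and protein-coding genes received 8.60 to 13.6 M of them. The 86 genes took 0.647% to 0.769% of protein-coding counts, and 79 of them had at least 100 counts in every library (lowest value 26, in Atp5s). The labelled cell type was checked against its markers. Rag1 (276 CPM, counts per M counts of the scaled library), Dntt (78.7), Kit (138) and Il7r (83.1) were abundant, whereas Cd79a (1.03), Pax5 (0.60), Ebf1 (0.67) and Vpreb1 (0.19), which define pro-B cells, were near the bottom of the range, and Ly6a (Sca1) stood at 1.06. Trbc2 (116) and Cd247 (112), known from T and NK cells, were also abundant, with Cd3e at 0.28. The B-lineage markers therefore go against the label in part, and the libraries are called by their sort.

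The promoters of 4 genes are shown first, with and without matches to motifs of nuclear regulators of respiration. Whether these bear on the members' levels was not tested. Each line gives the 250 bases before the RefSeq start site (build GRCm38.p6, which is not the build named in the submitters' notes), 5′ to 3′ on the gene's strand, with motif matches in capitals (NRF1, ETS, CRE core TGACGT or CCAAT). Ndufv1 and Ndufa11 had 2 of the 3 smallest p-values between niches in LSK, Sdhb had the smallest between LSK and LK, and Cox6a1 holds matches to 3 motifs.
Ndufv1 (chr19:4012756-4013005, minus strand): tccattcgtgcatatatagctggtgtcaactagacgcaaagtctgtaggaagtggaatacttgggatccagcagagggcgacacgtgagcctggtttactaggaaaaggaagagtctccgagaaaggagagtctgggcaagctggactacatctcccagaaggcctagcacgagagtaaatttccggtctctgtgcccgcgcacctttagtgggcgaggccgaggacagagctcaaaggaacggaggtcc
Ndufa11 (chr17:56717512-56717761, plus strand): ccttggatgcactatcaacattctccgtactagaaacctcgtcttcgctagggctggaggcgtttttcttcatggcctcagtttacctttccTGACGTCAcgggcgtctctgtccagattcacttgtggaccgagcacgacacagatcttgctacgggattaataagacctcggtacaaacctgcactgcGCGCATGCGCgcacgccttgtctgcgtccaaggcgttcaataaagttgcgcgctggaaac
Sdhb (chr4:140961021-140961270, plus strand): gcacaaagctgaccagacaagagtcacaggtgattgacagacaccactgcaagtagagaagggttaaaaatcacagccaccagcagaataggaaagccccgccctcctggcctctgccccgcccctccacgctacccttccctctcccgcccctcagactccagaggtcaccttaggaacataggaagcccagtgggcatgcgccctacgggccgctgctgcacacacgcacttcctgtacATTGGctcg
Cox6a1 (chr5:115348959-115349208, minus strand): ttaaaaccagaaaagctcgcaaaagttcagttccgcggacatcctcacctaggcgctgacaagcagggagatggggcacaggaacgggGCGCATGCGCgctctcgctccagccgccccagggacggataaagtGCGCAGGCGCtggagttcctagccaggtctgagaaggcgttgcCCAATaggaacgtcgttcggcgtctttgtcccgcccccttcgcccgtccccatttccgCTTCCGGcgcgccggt

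Motifs were searched on both strands of windows of 300 bases, from 250 before to 50 after the start, for the 70 genes with a RefSeq entry. The NRF1 motif, bound by a regulator of respiratory genes, lay in 19 of the 70 (27.1%), against 5.19% of all genes in the RefSeq table and 11.1% of the protein-coding genes tested. It is seen in the Ndufa11 line once and in the Cox6a1 line at 2 places. The YY1 motif lay in 6 (8.57%, against 0.995% and 2.31%), and the ETS motif CCGGAAG, bound by GABP among others, in 18 (25.7%, against 9.93% and 19.6%). The CRE core TGACGT, of which Ndufa11 holds 2 overlapping copies on opposite strands, was present in 8 (11.4%, against 8.37% and 12.7%), TATAAA in 5 (7.14%, against 15.7% and 9.07%) and CCAAT in 30 (42.9%, against 41.1% and 43.1%). No match was found in the window of Ndufv1. The ETS match of Sdhb lies after the start site and is not in the printed stretch. These are letter matches, and binding was not measured.

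Complex V had the largest share of the signal. Of the summed mean level of the 86 genes, complex V took 43.0%, complex I 24.1%, complex IV 15.3%, complex III 9.49%, complex II 6.40% and the assembly factors 1.70%. Subunits of the catalytic head of ATP synthase led: Atp5b (beta) had a mean of 394 CPM and Atp5a1 (alpha) 376 CPM. Per kilobase of exon, Atp5a1 was first (120 CPM per kb), followed by Cox8a, a small complex IV subunit (98.4), Atp5b (92.9), Atp5h (53.7) and Atp5c1 (47.4). Ndufb2 (0.79 CPM per kb) and Atp5s (0.97) were last. The exon length joins all annotated exons of a gene, 5628 bases in Ndufb2, and may exceed that of the transcripts present. The order per kb is therefore approximate. The assembly factors spanned only 1.76 (Ndufaf3) to 4.60 (Ndufaf1) CPM per kb, below the median of every complex, of which the lowest was 13.2 in complex I.

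**Figure D1:**
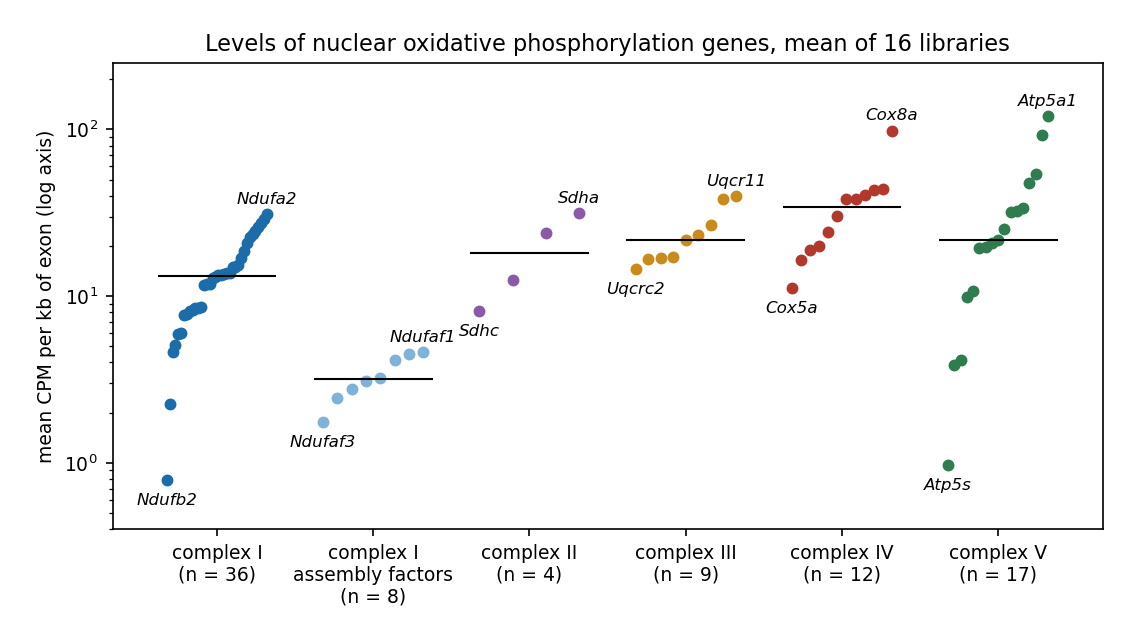
Mean CPM per kilobase of exon over 16 libraries (log axis) for each gene, by complex; the bar is the median of the complex. Atp5a1, Cox8a and Atp5b stand highest, and the 8 assembly factors lie between 1.76 and 4.60.

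Within each complex the CPM, which are not divided by exon length, spread widely. In complex I the lowest mean belonged to Ndufb2 (4.45 CPM). In complex II, Sdha, the flavoprotein that oxidises succinate, stood at 130 CPM, and Sdhc, a membrane anchor, at 26.4 CPM. Complex III ran from Uqcr10 (13.7 CPM) to Uqcrc1, a core protein (71.0 CPM), and complex IV from Cox7a2 (18.0 CPM) to Cox6c (85.97 CPM). Among the assembly factors, Ndufaf4 was highest (16.2 CPM) and Ndufaf3 lowest (3.19 CPM).

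The spread between libraries differed from gene to gene. The narrowest ranges were those of Sdha (120 to 141 CPM), Ndufs4, an accessory subunit of complex I (21.3 to 25.1 CPM), and Atp5a1 (331 to 399 CPM), or 0.23, 0.24 and 0.27 on the log2 scale. The widest were those of Atp5s (1.18 to 2.57 CPM), Ndufb2 (2.93 to 6.14 CPM) and Ndufaf6 (2.72 to 5.36 CPM), or 1.09, 1.06 and 0.97, all genes of low level. Cox5b, an abundant gene, varied most within complex IV (46.1 to 78.7 CPM, or 0.77).

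Of the subunits that exist as tissue-specific paralogs, the widely expressed form had by far the higher counts, and the other forms were at or below a mean of 8.75. Cox4i1 had a mean of 1411 counts per library and Cox4i2, known from lung and hypoxia, 0.69. Cox6a1 had 728 counts against 3.19 for the heart and muscle form Cox6a2, Cox6b1 744 against 3.69 for the testis form Cox6b2, and Cox7b 1177 against 1.19 for Cox7b2. Cox7a2 (425 counts) and Cox7a2l (1064), which takes part in supercomplex assembly, stood against 8.75 for the muscle form Cox7a1. Cox8a had 1438 counts against 2.81 for Cox8b and 1.38 for Cox8c, and Ndufa4 had 538 against 4.75 for Ndufa4l2, a hypoxia-responsive paralog. The c subunit of the ATP synthase rotor is encoded by 3 genes. Atp5g3 supplied 50.4% to 59.6% of their summed CPM in each library, Atp5g2 24.6% to 33.3% and Atp5g1 12.97% to 17.2%. Their order was the same in all 16 libraries. Counts of pseudogene copies are not in these shares. Copies of Atp5g2 held a mean of 815 counts, against 861 for Atp5g2 itself and 1692 for Atp5g3. The shares and the order therefore depend on how shared reads were assigned.

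Some of these levels are uncertain because mouse genomes carry many processed copies of these genes. A pseudogene of at least 95% identity over at least 100 bases was found for 22 of the 86 genes (45 copies), and in 6 genes the copies held over 25% as many counts as the gene. The largest shares were those of Ndufb4 (104%, mainly Ndufb4c with a mean of 393 counts against 385), Atp5g2 (94.6%), Atp5l (72.2%), Ndufab1 (51.4%), Cox7c (42.8%) and Ndufs5 (34.01%). How the authors' counting assigned reads shared by such copies is not given in the sources used here.

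The first comparison asks whether the genes differ between the CNS and the BM in LSK cells. None of the 86 passed an adjusted p of 0.05 (0 of 18878 genes tested, percent called 0, edgeR quasi-likelihood test), and 77 of 86 were lower in the CNS, with 48.7% of all genes lower. The median log2 difference was −0.11 against 0.006 over all genes, and the median standard error of a gene was 0.098. Among the 11828 genes averaging 50 counts or more, a level nearer to that of the members, the median in this fit was −0.035. Complexes IV (12 of 12) and V (17 of 17) were lower throughout, complex II in 4 of 4, complex I in 30 of 36, complex III in 7 of 9 and the assembly factors in 7 of 8. At an unadjusted p under 0.05 stood 13 genes, all lower in the CNS, or 15.1% of the members, where 5.74% of all genes had such a p and 1.92% had it and were lower.

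Ndufv1, the complex I subunit that binds NADH and FMN, had the smallest p. Its levels were 46.9, 38.8, 45.4 and 41.2 CPM in BM LSK 1 to 4 and 32.2, 36.9, 37.9 and 37.1 CPM in CNS LSK 1 to 4. All CNS libraries lay below all BM libraries, at 36.03 ± 2.62 against 43.1 ± 3.72 CPM (SD, n = 4). The log2 difference was −0.26 ± 0.077 (SE; edgeR adjusted p 0.855). With pairs of BM and CNS libraries as a block 26 of all genes (0.138%) passed, and no member.

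Cox4i1, a regulatory subunit of complex IV, measured 65.4, 58.3, 67.7 and 60.1 CPM in the BM and 53.8, 55.9, 51.6 and 55.6 CPM in the CNS libraries of LSK cells. These groups did not overlap either, and the log2 difference was −0.21 ± 0.068 (SE; edgeR adjusted p 0.855). Ndufa11, an accessory subunit of the complex I membrane arm, read 11.2, 7.62, 10.7 and 9.77 CPM in BM LSK and 5.84, 6.85, 7.42 and 9.27 CPM in CNS LSK. Here CNS LSK 4 overlapped the BM range and CNS LSK 1 was lowest. The log2 difference of −0.41 ± 0.14 (SE) did not pass (edgeR adjusted p 0.855).

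In all, 5 genes had every CNS LSK library below every BM LSK library, against 1.59% of all genes: Cox4i1, Ndufb9, Ndufs8, Ndufv1 and Uqcrq. Ndufs8 carries iron-sulfur clusters of complex I, and Uqcrq is a small subunit of complex III. None had the opposite order (2.09% of all genes). Paired by number, 19 genes were lower in the CNS library of 4 of 4 LSK pairs (9.09% of all genes), and 1, Ndufb2, was higher in 4 of 4 (10.2% of all genes).

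**Figure D2:**
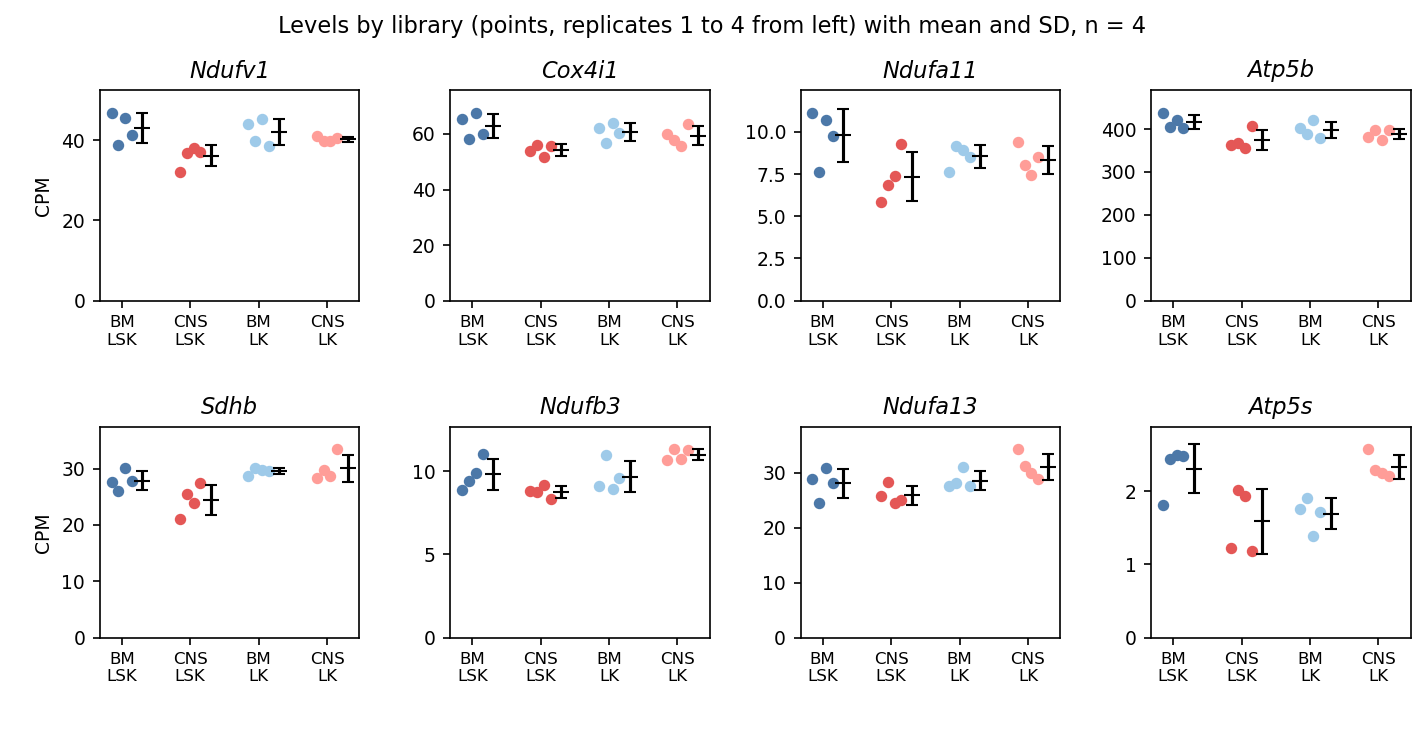
CPM in each library (points, replicates 1 to 4 from left) with mean and SD (n = 4) for 8 genes in the 4 groups. Ndufv1 and Cox4i1 lie lower in every CNS LSK than in every BM LSK library, and Atp5s differs in opposite directions in LSK and LK.

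The lower values in LSK rested mainly on 2 of the 4 CNS libraries. The median difference of the 86 genes, CNS minus BM, was −0.24 in pair LSK 1 (77 lower) and −0.24 in LSK 3 (84 lower), but −0.017 in LSK 2 (52 lower) and 0.037 in LSK 4 (36 lower). In every complex and in the assembly factors pairs 1 and 3 lay below pairs 2 and 4: complex V had −0.27 and −0.25 in pairs 1 and 3, and 0.066 and 0.044 in pairs 2 and 4. CNS LSK 1 was the lowest of 16 libraries for 37 genes and CNS LSK 3 for 23, where 8.74% and 7.01% of all genes had their lowest value there. Both were the 2 lowest libraries for 26 genes (30.2%), against 2.31% of all genes. Summed over the members, CNS LSK 1 had 2942 and CNS LSK 3 had 2995 CPM, and the other 14 libraries between 3204 and 3572.

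**Figure D3:**
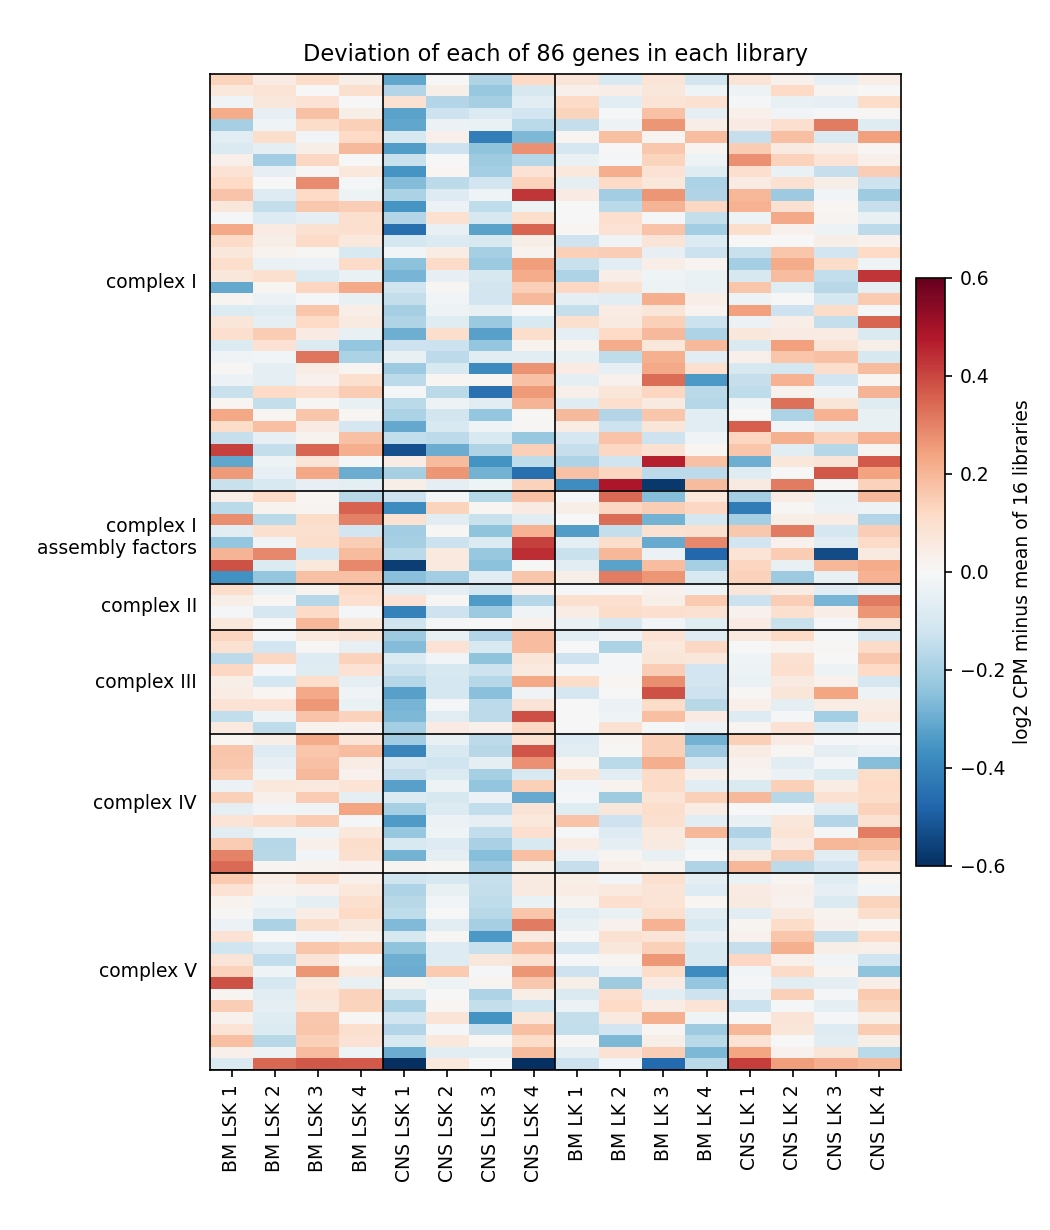
Log2 CPM minus the mean of 16 libraries for each of 86 genes (rows, by complex and falling level) in each library (columns). CNS LSK 1 and CNS LSK 3 are blue in every complex, and CNS LSK 4 is not.

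Leaving out 1 library at a time moved the median LSK difference from −0.14 (without CNS LSK 4) to −0.083 (without CNS LSK 1), and the number of members at an unadjusted p under 0.05 from 20 (without CNS LSK 4) to 5 (without CNS LSK 3). With only genes averaging 50 counts or more the median was −0.072 with 4 such members, and with no filter on low counts −0.176 with 25. Other genes differed in the same 2 pairs. Cytosolic ribosomal protein genes had medians of −0.18 and −0.16 in pairs LSK 1 and LSK 3. Protein-coding genes with up to 1000 bases of exon had −0.19 and −0.10, and those over 4000 bases 0.045 and −0.00027. Those of 1000 to 2000 bases had −0.15 and −0.095, and those of 2000 to 4000 bases −0.052 and −0.060. Among the members themselves, the 18 genes of up to 1000 bases had −0.27 and −0.19, and the 11 over 4000 bases −0.16 and −0.21. The 34 members of 1000 to 2000 bases had −0.26 and −0.28, and the 23 of 2000 to 4000 bases −0.20 and −0.24. With a trend on exon length removed, the median LSK difference was −0.072 (70 lower, 8 at an unadjusted p under 0.05), a setting chosen after the data were seen. The 12 markers of neural, glial and meningeal cells summed to 67.3 and 52.1 CPM in CNS LSK 1 and 3, against 39.2 to 43.6 in the other CNS LSK and 32.4 to 45.5 in the BM LSK libraries. Most of this was Mbp (mean 36.2 CPM over 16 libraries), and Mog, Snap25 and Nefl were near 0. The B-lineage markers summed to 603 CPM in CNS LSK 1 and to between 267 and 436 in the other libraries. Myeloid markers summed to 39.2 CPM in CNS LSK 4 and to 8.52 to 12.8 in the other CNS LSK libraries. Their sum ran from 5.24 to 34.8 CPM in BM LSK, 7.61 to 23.3 in BM LK and 9.87 to 35.95 in CNS LK. A high sum was therefore not confined to CNS LSK 4. Fcgr3 had the highest mean of these markers (10.7 CPM over 16 libraries). The part of length, marker level and library in the difference was not tested.

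**Figure D4:**
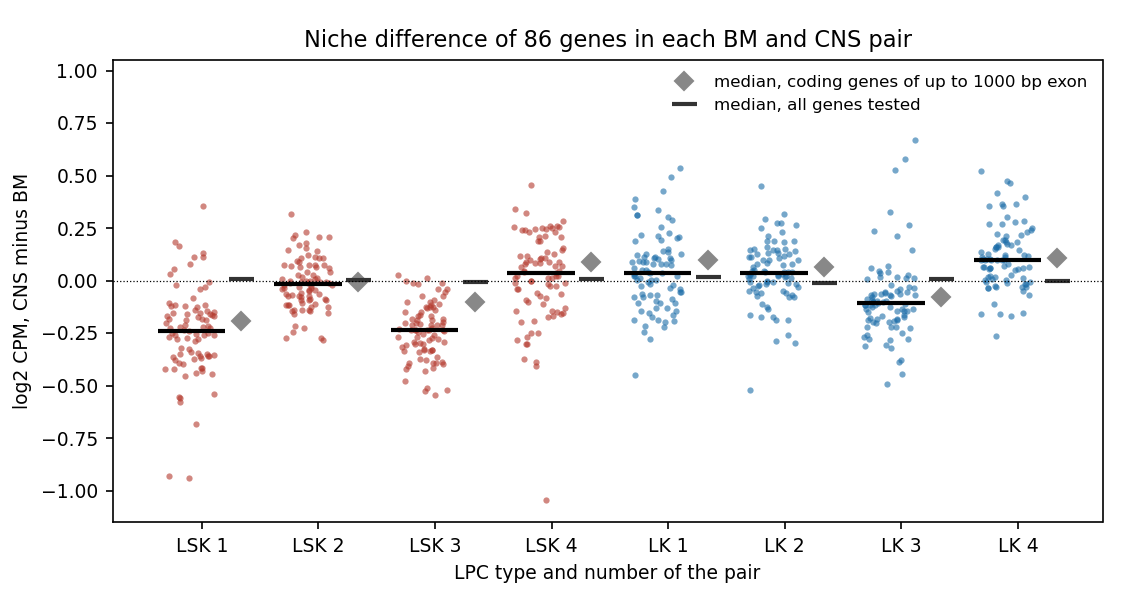
Log2 CPM, CNS minus BM, of each of 86 genes in each pair, with their median (bar), the median of protein-coding genes with up to 1000 bases of exon (diamond) and of all genes tested (dash). The gene medians are −0.24 in LSK 1 and LSK 3 and between −0.11 and 0.098 in the other 6 pairs.

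In LK cells the 86 genes showed no common direction between niches. None passed (percent called 0; edgeR), 37 were lower and 49 higher in the CNS, where 48.5% of all genes were lower, and the median was 0.022. Without BM LK 4 the median turned to −0.013 (46 lower), and without BM LK 3 it was 0.057 (24 lower). An unadjusted p under 0.05 was reached by 2 genes, both higher in the CNS, against 3.99% of all genes and 2.86% in that direction. With the block 12 of all genes (0.0636%) passed, and no member. Atp5o, the stalk subunit that binds the catalytic head, had 19.03, 19.5, 21.3 and 18.2 CPM in BM LK and 24.3, 22.2, 19.98 and 23.5 CPM in CNS LK. Its groups overlapped through library 3 of each, and the log2 difference was 0.21 ± 0.092 (SE; edgeR adjusted p 1.00). Atp5s was above every BM LK library in each CNS LK library (1.37% of all genes), and Ndufaf7, a methyltransferase needed for complex I assembly, was below (0.81%). In the CNS library of 4 of 4 LK pairs 1 gene was lower (7.41% of all genes) and 5 were higher (7% of all genes). The pair medians were 0.036, 0.036, −0.11 and 0.098 in LK 1 to 4.

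The interaction asks whether the niche difference of LSK cells differs from that of LK cells. No member passed it (percent called 0; smallest adjusted p 1.00 in edgeR's test), with a median of −0.14 against −0.007 over all genes. In 73 of 86 genes the niche difference was lower in LSK, against 51.7% of all genes, including 12 of 12 in complex IV and 17 of 17 in complex V. An unadjusted p under 0.05 was found in 4 members, all lower in LSK, and in 1.49% of all genes, or 0.583% in that direction. Leaving out 1 library moved this count from 2 (without CNS LSK 1 or CNS LSK 3) to 17 (without CNS LSK 4). With BM and CNS pairs as a block these were 10 members (3.13% of all genes), and still none passed.

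Atp5s showed the largest interaction. Its levels were 1.81, 2.45, 2.50 and 2.49 CPM in BM LSK, 1.22, 2.01, 1.93 and 1.18 CPM in CNS LSK, 1.76, 1.90, 1.39 and 1.72 CPM in BM LK and 2.57, 2.29, 2.24 and 2.21 CPM in CNS LK. It was lower in the CNS in 4 of 4 LSK pairs and higher in 4 of 4 LK pairs, with an interaction of −0.99 ± 0.30 (log2, SE; edgeR unadjusted p 0.00384, adjusted 1.00). Ndufb3, an accessory subunit of complex I, showed the same order in every pair. It had 9.81 ± 0.92 and 8.76 ± 0.35 CPM in BM and CNS LSK (SD, n = 4). In BM and CNS LK it had 9.66 ± 0.93 and 11.0 ± 0.34 CPM. Pair LSK 1 was close to a tie, at 8.86 CPM in the BM and 8.80 CPM in the CNS (log2 difference −0.0091). The Ndufb3 difference in pair LK 2 was 0.040. Its interaction was −0.35 ± 0.14 (log2, SE; edgeR adjusted p 1.00). These were the only members with this order in all 8 pairs, against 0.222% of all genes, and none had the reverse (0.275%).

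Over both sorts together, 71 of 86 genes were lower in the CNS, where 50% of all genes were. None passed (percent called 0; edgeR), and the median was −0.044, or −0.026 without CNS LSK 1 (59 lower). There were 5 members, all lower, with an unadjusted p below 0.05, against 9.15% of all genes (1727) and 2.6% of all genes in that direction. The smallest p belonged to Ndufv1 (log2 difference −0.16 ± 0.054, SE; edgeR adjusted p 0.389), Cox4i1 (−0.12 ± 0.048; 0.459) and Atp5j2, a subunit of the ATP synthase membrane part (−0.12 ± 0.053; 0.492). No gene was lower, and none higher, in the CNS library of all 8 pairs (1.45% and 1.49% of all genes). With the block, 126 of all genes (0.667%) but no member passed.

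LSK and LK cells were compared next. Over both niches 45 genes passed (0.238% of all genes; edgeR), none of them a member, and 61 of 86 members were lower in LSK (53.2% of all genes), with a median of −0.041, or −0.018 without CNS LSK 1 (51 lower). This fit counts the BM and CNS libraries of a pair as separate samples; with counts summed per pair no gene passed, and the smallest adjusted p of a member was 0.328, in Sdhb (edgeR). Of the members 5, all lower in LSK, had an unadjusted p below 0.05, against 12.1% of all genes and 4.59% in that direction. Sdhb, the iron-sulfur subunit of succinate dehydrogenase, had the smallest p. It measured 27.6, 26.0, 30.1 and 27.7 CPM in BM LSK and 28.7, 30.1, 29.8 and 29.6 CPM in BM LK. In the CNS it measured 21.0, 25.5, 23.9 and 27.4 CPM in LSK and 28.3, 29.8, 28.6 and 33.4 CPM in LK, with no overlap there. The log2 difference over both niches was −0.19 ± 0.058 (SE; edgeR adjusted p 0.190). Ndufab1, the mitochondrial acyl carrier protein, followed (−0.19 ± 0.067; edgeR adjusted p 0.251), with the uncertainty from its copies given above, and then Ndufa13, a complex I subunit also known as GRIM-19 (−0.14 ± 0.058; 0.332).

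The sorts were also compared within each niche, and the test of a difference between the niches is the interaction above, which no member passed. Within the BM 58 members were higher and 28 lower in LSK (51.4% of all genes lower), with a median of 0.027. An unadjusted p under 0.05 was seen in 2 members (6.38% of all genes), Ndufab1 (−0.20) and Atp5s (0.45), and Sdhc had the next smallest p (edgeR unadjusted p 0.0584). Sdhc was higher in every BM LSK than in every BM LK library (1.49% of all genes; none was lower in this way, 1.64%), at 27.9 ± 1.62 against 25.3 ± 0.62 CPM (SD, n = 4). Within the CNS 73 members were lower in LSK (52.2% of all genes), with a median of −0.11. There 10 members had an unadjusted p under 0.05, all lower in LSK, against 6.58% of all genes and 2.33% of all genes in that direction. Without CNS LSK 1 these were 5 members and the median was −0.068. Sdhb (−0.30 ± 0.083), Ndufb3 (−0.33 ± 0.099) and Ndufa13 (−0.26 ± 0.082) had the smallest p (edgeR adjusted p 0.655, 0.655 and 0.669). Those 3 genes, with Atp5s and Ndufv1, lay below every CNS LK library in each CNS LSK library (1.28% of all genes), and none lay above (2.37%). None passed in either niche (percent called 0 in both). The niche and sort comparisons share the CNS LSK libraries, so these differences are not separate evidence.

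**Figure D5:**
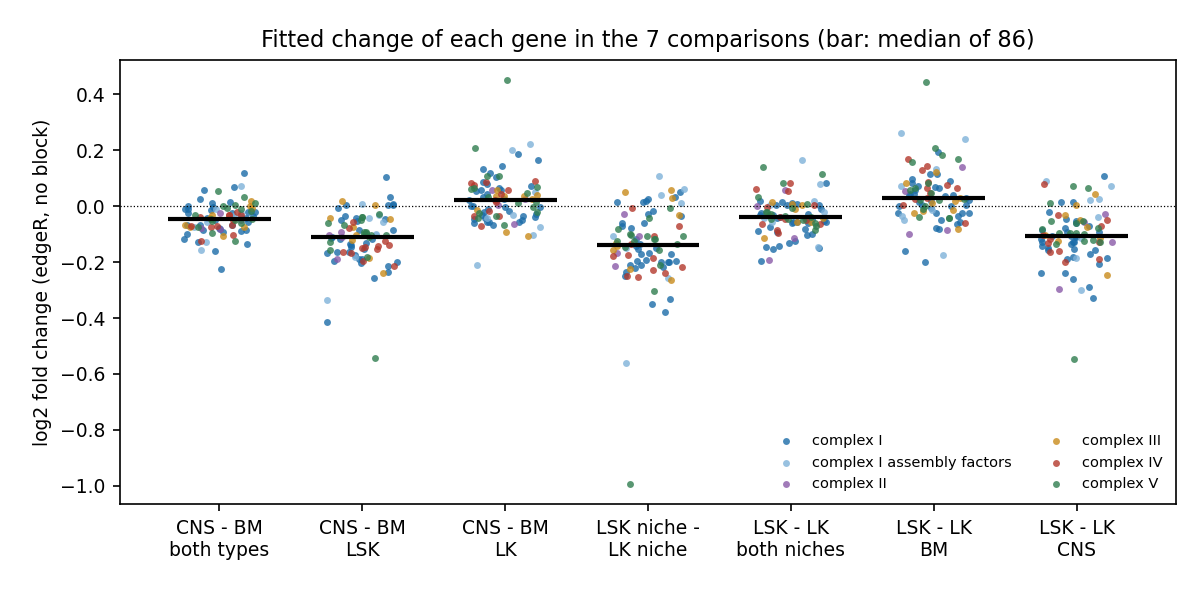
Fitted log2 difference of each of 86 genes in 7 comparisons, coloured by complex, with the median as a bar. Medians range from −0.14 (interaction) to 0.027 (LSK minus LK in the BM), and no gene passes an adjusted p of 0.05.

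Other genes of mitochondrial energy metabolism were read from lists chosen with earlier results of these data known, and no gene of any list passed in any of the 7 comparisons (edgeR). In LSK cells, CNS minus BM, 28 of 39 assembly and insertion factors outside the symbol rule were lower (median −0.073), as were 16 of 18 tricarboxylic acid cycle genes (−0.096) and 14 of 16 genes of electron carriers and of adenine nucleotide and phosphate exchange (−0.14). Of all genes, 48.7% were lower. In these 3 lists too, pairs LSK 1 and LSK 3 were lowest. The pair medians in LSK 1 to 4 were −0.095, 0.014, −0.094 and −0.053 for the assembly factors. They were −0.16, −0.019, −0.11 and −0.033 for the acid cycle, and −0.21, −0.050, −0.20 and −0.032 for the carriers and exchange. Vdac1, the outer membrane channel, had the smallest p of the last list (−0.17 ± 0.060, SE; edgeR adjusted p 0.855). Regulators of mitochondrial biogenesis were lower in 10 of 14 (−0.048), with pair medians of −0.0099, −0.075, −0.068 and −0.025 in LSK 1 to 4. The 13 mitochondrially encoded subunits, which share complexes I, III, IV and V with the nuclear genes, were lower in 8 (−0.020), with pair medians of 0.018, −0.24, 0.029 and 0.085 in LSK 1 to 4. In pair LSK 2 they were lower in 13 of 13, where the nuclear genes had a median of −0.017.

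The 86 genes varied together across libraries. Over the 16 libraries the median correlation of a pair of members was 0.35, with 87.3% of pairs positive, against −0.0058 and 49.3% among all protein-coding genes tested. With group means removed it was 0.31. It was highest within complexes III (0.48) and V (0.48), then IV (0.42), II (0.30) and I (0.30), and lowest among the assembly factors (0.17). With group means removed the order changed, to 0.49 in complexes III and V, 0.33 in IV and 0.23 in I. The assembly factors then had 0.17 and complex II 0.095. Assembly factors also had the lowest median level (6.23 CPM) and the widest median SD within groups (0.198, log2). The part of level in these correlations was not tested. Between libraries of a group, the median of ribosomal protein genes (SD 0.0757) and of coding genes up to 1000 bases (0.0755) varied like that of members (0.0745). The median of the other members was followed with r over 0.5 by 57 genes and with r below 0 by 1, and closely by Atp5a1 (0.90) and Cox5b (0.88). These points share libraries, depth and scaling, so the values are a description.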

How the data were processed

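Total RNA went through the SMARTer Stranded Pico Input kit, per the labels' protocols. The deposited table holds whole-number counts per Ensembl gene for 16 libraries; its title calls them normalised, but library totals differ and size factors ran from 0.804 to 1.30, so they were treated as raw counts. The submitters' processing notes name DESeq2 and GRCm39; the aligner, counter and use of strand or molecular identifiers are not given in the sources used here, and counts are not independent molecules. Symbols came from GENCODE vM21 for 52081 identifiers (3333 without). Every column was matched to a sample (0 unused).

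Genes with a mean of at least 10 counts (18878) were modelled by group, without a block and with TMM factors, using edgeR 4.0.16 in R 4.3.3 and its quasi-likelihood test (two-sided); p-values were adjusted over all genes by Benjamini-Hochberg, with 0.05 as threshold. CPM uses TMM-scaled library sizes, and log2 CPM a prior count of 1. No libraries of a group were duplicates (chi-square over degrees of freedom 10.6 to 41.6). Limma 3.58.1, DESeq2 1.42.0 and BLAST 2.17.0 were also used, and the fits were tested on simulated data. BM and CNS libraries of one sort and number share the start of their description label. Their deviations from group means correlated over 0.1 in 8 of 8 pairs for genes averaging 50 counts or more (0.337 to 0.617) and in 6 of 8 for those averaging 10 or more, so they were taken as pairs and the block was run as an alternative.

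Members, lists and rules were chosen with earlier results of these data known. Named genes were the 3 members with the smallest p per comparison, the highest, lowest and most variable per complex, the 3 widest and narrowest ranges, paralogs, and members opposite in every pair; Ndufb9, Ndufs8, Uqcrq, Ndufaf7, Ndufaf1, Atp5h, Atp5c1, Cox7b, Vdac1 and the genes with processed copies were named after their values were seen. Some genes the rule names are not reported here. The NRF1 and YY1 motifs are given by name only. Identifiers without a symbol held 39.0% to 45.3% of counts. Alternatives were other scaling, filters, DESeq2, blocks, protein-coding genes only leaving out each library and, chosen after seeing the data, a length trend.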

Additional observations from a re-analysis of the deposited data

Results flagged for a closer look

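In 10 of 172 groups of 4 libraries, 1 library lay far from the other 3 by Dixon's gap ratio, where chance alone gives 8.6. For Atp5s, BM LSK 1 had 1.81 CPM against 2.45 to 2.50, so its BM LSK mean in the niche comparison holds a low value. For Cox5b, BM LSK 2 had 57.5 CPM against 67.9 to 68.9. For Cox6b1, BM LSK 4 had 36.6 CPM against 30.0 to 30.8. Cox7a2 was high in BM LSK 1 (22.6 CPM against 18.1 to 18.2) and low in CNS LSK 3 (15.4 CPM against 18.0 to 18.3). Cox8a was high in CNS LSK 4 (73.3 CPM against 55.8 to 58.2), and so was Ndufs4 (23.8 CPM against 21.6 to 21.95). Ndufa13 was high in BM LK 3 (31.1 CPM against 27.6 to 28.1). Ndufaf6 was low in CNS LK 3 (2.72 CPM against 4.09 to 4.38). The median log2 deviation of complex I was 0.050 in CNS LK 2 against 0.013 to 0.017 in the other CNS LK libraries.

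Atp5s (interaction −0.99 on the log2 scale, edgeR adjusted p 1.00) and Ndufb3 (−0.35, edgeR adjusted p 1.00) were lower in the CNS in every LSK pair and higher in every LK pair. For Ndufb3 the difference in pair LSK 1 was only −0.0091. Neither gene passed the interaction test.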

How the results depend on the processing

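No member passed in any of 162 alternative tests. For the 3 members with the smallest p in each comparison, 483 of 483 values kept their direction and their side of 0.05. Those members were picked by their p in these data, and no member had an adjusted p below 0.190 in the main edgeR fits. Some fits also left out a library that the comparison does not use. This outcome was therefore largely set in advance and is no test of stability. Counts of all genes called moved more. The replicate block on BM and CNS pairs gave 126 calls between niches over both sorts, 26 in LSK and 12 in LK, against 0 in each without it; it changed no member's call. Without the filter on low counts the niche counts were 85, 10 and 14, and the LSK against LK counts 290 (main value 45), 48 in the BM and 38 in the CNS. DESeq2 gave 40 between niches over both sorts, and 222, 25 in the BM and 6 in the CNS between LSK and LK. LSK and LK libraries of one number also share the first part of their description label, whose meaning is not given; r was over 0.1 in 6 of 8 for genes averaging 50 counts or more and in 4 of 8 at 10, so they were not taken as pairs. The replicate block on the title number gave 162, and counts summed per pair gave 0. Leaving out 1 library gave 15 (without CNS LK 3) to 137 (without CNS LSK 2) calls between LSK and LK, 0 to 2 in the BM (2 without BM LK 3) and 0 to 13 in the CNS (13 without CNS LSK 2). The first count also moved without BM LSK 1 (19), BM LSK 3 (131), CNS LSK 1 (17), CNS LSK 3 (21), BM LK 1 (21), BM LK 2 (26), BM LK 4 (21), CNS LK 1 (28), CNS LK 2 (25) and CNS LK 4 (106). The cause was not tested.

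Without the filter the median of all genes shifted by up to −0.067 (in LSK between niches, and between LSK and LK in the CNS), and the member medians turned from 0.022 to −0.026 in LK between niches and from 0.027 to −0.019 between LSK and LK in the BM; the length trend turned the latter to −0.0062. These medians are within the spread between libraries (SD 0.074). Low genes such as Atp5s are limited by depth.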
